A study of Mus musculus with 4 samples.

Results

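The POU genes of classes 2, 3, 4 and 6 were compared between PSC-derived SG placodes and mouse E12.5 SMGs. POU factors share a bipartite DNA-binding region, made of a POU-specific domain and a POU homeodomain, and many of them recognise the octamer ATGCAAAT or related sites. Class 2 holds the octamer-binding factors Oct-1 (Pou2f1) and Oct-2 (Pou2f2). Class 3 holds Oct-6 (Pou3f1), Brn-2 (Pou3f2), Brn-1 (Pou3f3) and Brn-4 (Pou3f4), which are best known from neural progenitors, neurons and glia. Class 4 holds the Brn-3 factors of sensory neurons, retinal ganglion cells, hair cells and some spinal interneurons, and class 6 includes Pou6f1, which is known from the nervous system.

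The set had 10 genes among 24771 listed features, namely 22036 Ensembl genes and 2735 loci assembled by the authors. The genes were taken by their symbols, and the set was chosen by the FPKM values of the same placode and SMG replicates, so the difference of each POU gene between the groups is given as a description with no test. The placodes were whole aggregates of 129w2 mouse embryonic stem cells, 1 line, collected on day 10, with 2 samples. The cells were seeded at 3000 per well in medium with 2% growth factor reduced Matrigel, and were given BMP4 at 2 ng/ml on day 3 and bFGF at 25 ng/ml with RA at 1 μM on day 4. From day 6 the medium held FGF10 at 200 ng/ml. The other group was 2 samples of mouse submandibular glands at E12.5, with no treatment, and the sources used here do not say how they were dissected or whether animals were pooled. No source says that the samples of a group came from separate cultures or animals, so p-values measure only the spread between these samples.

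Expression was given as FPKM, a fragment count scaled to transcript length and library size, which the authors computed after mapping with HISAT2. The FPKM values summed to between 361963 and 384773 per sample. Read counts were not analysed here. A step was sought in the low values of genes with 1 transcript, and 38.8 to 51.6% of them lay within 0.1 of a whole multiple. The step was picked to make this share largest in each sample, so the share is no test of it. On this estimate, 1 fragment in a transcript of 3000 bases was worth about 0.0170 to 0.0203 FPKM. POU genes below 0.1 FPKM therefore rested on at most a few fragments. Pou3f2, at 0.00450 FPKM in SMG replicate 1 with a transcript of 5587 bases, was below 1 fragment on this estimate. The labelled tissue was checked with marker lists. All 8 neural progenitor markers and all 8 neuron markers were higher in the placodes, while 6 of 8 epithelial markers were lower and Krt5, Krt14 and Krt15 were listed at 0 in both placode replicates. Over all features tested, 35.7% were called higher and 40.4% lower (limma adjusted p under 0.05). The test needed a mean of at least 1 FPKM over the 4 samples. A gene near 0 in 1 group can reach this through the other group. Sox1, Sox3, Pax6, Hes5 and Rbfox3 did so through the placodes, and Krt5, Krt14, Krt15 and Trp63 through the SMGs. Counts of called markers are therefore a description. Summed FPKM of the epithelial list was 58.1 and 64.0 in the placode replicates and 380 and 344 in the SMG replicates, and that of the neuron list was 1118 and 1151 against 94.2 and 84.5.

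All 10 POU genes were higher in both placode replicates than in both SMG replicates, and of all listed features 29.6% were ordered this way. On the scale of log2(FPKM + 1), 8 of the 10 differed by at least 1, which corresponds to at least 2-fold, against 8.17% of all listed features. The other 2 were Pou2f1 and Pou4f3. These shares describe the contrast with which the genes were chosen. The median difference over all 10 genes was 2.82, and over all listed features it was 0. Averaged over the 4 samples, 8 of the 10 genes reached 1 FPKM, and Pou4f2 and Pou4f3 did not. With detection set at 1 FPKM or more in each replicate, 9 POU genes were detected in the placodes and 2, Pou2f1 and Pou6f1, in the SMGs. Fewer cells with a transcript and less of it per cell cannot be told apart in RNA of whole aggregates and glands.

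**Figure D1:**
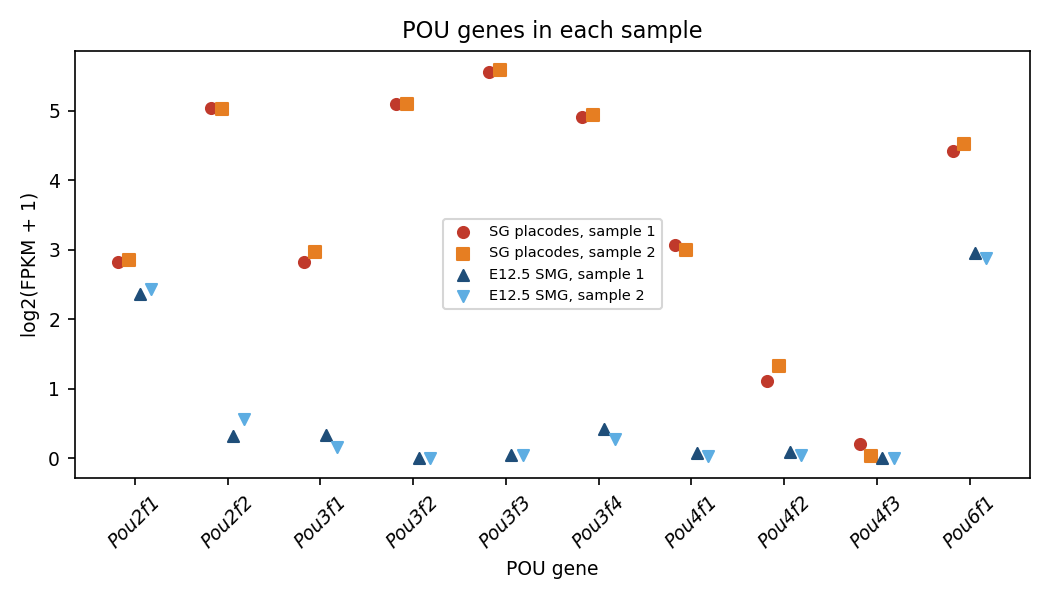
Level of each POU gene in each of the 4 samples, as log2(FPKM + 1), with 1 point per sample. The placode points lie above the SMG points for all 10 genes, and the gap is widest for Pou3f3, Pou3f2, Pou2f2 and Pou3f4.

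The class 3 genes had the largest summed level in the placodes. Pou3f3, which acts in forebrain, kidney and spinal cord development, showed an FPKM of 45.9 and 46.9 in the placode replicates and of 0.0336 and 0.0314 in the SMG replicates. It was the most abundant POU gene in the placodes, and its difference on the log2(FPKM + 1) scale was 5.52. Pou3f2, a regulator of neurogenesis, showed an FPKM of 33.2 and 33.1 in the placode replicates and of 0.00450 in SMG replicate 1, and was listed at 0 in SMG replicate 2. Its difference was 5.09 on the same scale, and the placode replicates differed by less for it than for any other POU gene, by 0.001. Pou3f4 is needed in the inner ear. It was at 29.2 and 29.7 FPKM in the placode replicates and at 0.340 and 0.210 in the SMG replicates. Its difference was 4.58 on the log2(FPKM + 1) scale, with a 107-fold ratio of mean FPKM. For these 3 genes the values of the groups were far apart, and their percentiles among all listed features lay between 89.3 and 94.1 in the placode replicates.

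Pou3f1, the class 3 factor of myelinating Schwann cells and early neural fate, was lower than its 3 relatives in the placodes. Its FPKM was 6.06 and 6.80 in the placode replicates and 0.255 and 0.112 in the SMG replicates, with a difference of 2.65 on the log2(FPKM + 1) scale. The mean of Pou3f4, the next class 3 gene above it, was 29.4 ± 0.402 (SD, n = 2), and the mean of Pou3f1 was 6.43 ± 0.520 (SD, n = 2). Together the class 3 genes made up 63.0% of the summed FPKM of the 10 POU genes in both placode replicates, against 5.3% and 3.0% in the SMG replicates. All 4 class 3 genes were annotated as a single exon in GENCODE M21 (build GRCm38). Their transcripts had 2928 to 7409 bases. In the other classes, the highest exon count among the annotated transcripts of each gene was 2 to 17, and Pou4f3 also had a transcript with 1 exon.

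The bases just upstream of Pou3f2, Pou3f3 and Pou3f4 are shown for the CCAAT matches that were seen in them, so the choice was made with the sequences in view. Pou2f2, whose levels in both groups were close to those of Pou3f4, has no such match in its only window and is not shown. That window, chr7:25132461-25132710, lies inside the gene in GENCODE, which runs to 25179726 on the minus strand. The bases before the GENCODE start of Pou2f2 were not searched. The bases shown come from RefSeq on GRCm38.p6, read 5′ to 3′ on the strand of the gene, and the capitals mark the pentamer CCAAT or its reverse complement. The Pou3f2 bases lie on the minus strand at chr4:22488367-22488616. Those of Pou3f3 lie on the plus strand at chr1:42695518-42695767. Those of Pou3f4 lie on the plus strand at chrX:110814129-110814279, and stop 99 bases before the RefSeq start because the gene begins there in GENCODE.
Pou3f2: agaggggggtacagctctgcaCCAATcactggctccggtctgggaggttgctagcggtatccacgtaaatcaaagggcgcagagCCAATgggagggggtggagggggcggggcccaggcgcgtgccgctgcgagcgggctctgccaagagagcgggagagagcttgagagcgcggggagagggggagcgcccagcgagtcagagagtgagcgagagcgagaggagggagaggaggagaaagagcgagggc
Pou3f3: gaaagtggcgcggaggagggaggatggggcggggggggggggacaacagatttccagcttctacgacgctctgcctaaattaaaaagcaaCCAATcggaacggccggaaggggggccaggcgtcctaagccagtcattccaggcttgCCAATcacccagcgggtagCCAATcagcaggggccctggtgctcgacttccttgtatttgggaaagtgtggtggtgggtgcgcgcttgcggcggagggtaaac
Pou3f4: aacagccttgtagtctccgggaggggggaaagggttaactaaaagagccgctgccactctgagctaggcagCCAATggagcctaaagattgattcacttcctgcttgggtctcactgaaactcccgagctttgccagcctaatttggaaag

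Promoter windows were found for 8 of the 10 genes, 10 windows in all, and Pou3f1 and Pou4f3 had none. In the 250 bases before each start, both strands were searched for the octamer ATGCAAAT and for CCAAT, and no match of one lay on a match of the other. CCAAT was searched after the sequences had been seen. It was found 2 times upstream of Pou3f2, 3 times upstream of Pou3f3 and 3 times upstream of Pou3f4, and in none of the other 7 windows. For Pou3f4, 1 of the 3 matches lies before the GENCODE start. The window of Pou2f2 and windows 2 and 3 of Pou2f1 lie inside their genes in GENCODE. Of all 32851 promoter windows, 33.8% held at least 1 match, 10.1% at least 2 and 2.79% at least 3. The octamer was in none of the 10 windows, where 1.60% of all windows held it. The GC content was 66.8% for Pou3f2, 60.8% for Pou3f3 and 58.0% for Pou3f4, within the range of the other POU windows (26.8 to 78.0%), beside a median of 52.4% over all windows. A match of letters is a description and not a binding site.

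**Figure D2:**
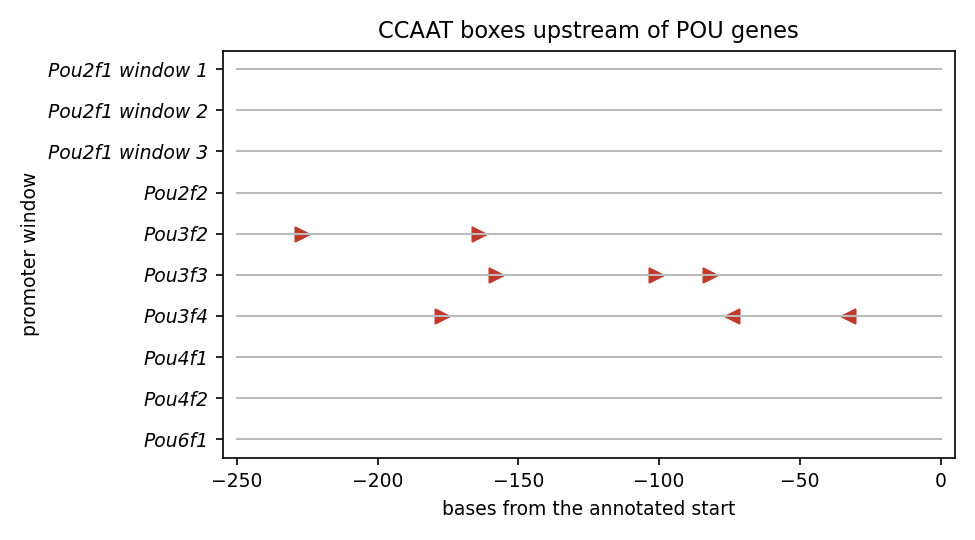
Positions of CCAAT matches in the 250 bases before each RefSeq start of 8 POU genes, with bases from the start on the horizontal axis and the direction of the triangle giving the strand. Matches are in the windows of Pou3f2 (2), Pou3f3 (3) and Pou3f4 (3), and the other 7 windows have none.

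In class 2, the pair of genes differed in pattern. Pou2f1, which encodes the widely expressed Oct-1, showed an FPKM of 6.06 and 6.21 in the placode replicates and of 4.15 and 4.40 in the SMG replicates. The groups did not overlap, but the difference was small, 0.44 on the log2(FPKM + 1) scale and a 1.43-fold ratio of mean FPKM. Pou2f2 encodes Oct-2, which is best known from B lymphocytes and is also made in neurons. Its FPKM was 31.8 and 31.6 in the placode replicates and 0.246 and 0.473 in the SMG replicates. The difference was 4.59 on the log2(FPKM + 1) scale, so in the placodes Pou2f2 was above Pou2f1 and in the SMGs it was below. Of the B lymphocyte markers, Cd79b and Ms4a1 were listed at 0 in both placode replicates and Cd79a was at 0.0645 and 0.0909 FPKM. A marker at a high level was Pax5, a factor of B cells and also of the midbrain, hindbrain and spinal cord, at 22.7 and 22.8 FPKM in the placode replicates and 0.00786 and 0.0217 in the SMG replicates (log2 difference 4.55, limma adjusted p = 3.01e-07). Pax5 was the only tested marker of the 5. It reached the mean FPKM for the test through the placodes, so its p-value is a description. Pou2af1, the B cell coactivator of class 2 factors, was listed at 0 in both placode replicates and was at 0.0246 and 0.102 FPKM in the SMG replicates. Exons of Pou2f1 overlap those of Cd247 on the opposite strand, and 17.0% of the 50-base stretches of its transcripts also occur in transcripts of other genes. The strandedness of the libraries is not given in the sources used here, but Cd247 was at or below 0.106 FPKM in every sample.

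In class 4, the placode levels were highest for Pou4f1, lower for Pou4f2 and lowest for Pou4f3, and in the SMGs the ranges of Pou4f1 and Pou4f2 overlapped. Pou4f1, which encodes Brn-3a of sensory neurons and dorsal spinal interneurons, showed an FPKM of 7.41 and 6.97 in the placode replicates and of 0.0512 and 0.0230 in the SMG replicates, a difference of 2.98 on the log2(FPKM + 1) scale. Pou4f2, the Brn-3b of retinal ganglion cells, was at 1.15 and 1.51 FPKM in the placode replicates and at 0.0636 and 0.0316 in the SMG replicates, a difference of 1.15. Both genes were separated between the groups, and in the placodes the mean FPKM of Pou4f1 was above that of Pou4f2, 7.19 ± 0.306 against 1.33 ± 0.250 (SD, n = 2). They share 23 stretches of 50 bases, which is 0.73% of those of Pou4f2. Pou4f3, the Brn-3c of hair cells, which lies on chromosome 18, was at 0.156 and 0.0248 FPKM in the placode replicates and was listed at 0 in both SMG replicates. Its difference of 0.12 on the log2(FPKM + 1) scale rested on placode replicate 1 and was 0.04 without that sample and 0.21 without placode replicate 2.

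The markers of cells that use class 4 factors did not move together. Of 9 dorsal interneuron markers, 7 were tested, and 6 were higher and 0 lower in the placodes, where 35.7% of all tested features were higher and 40.4% lower. Lhx1, a LIM-homeodomain factor, was the highest of them in the placodes, at 99.95 and 104.8 FPKM against 0.0262 and 0.0136, and Barhl1, the lowest, was at 0.0380 and 0.0202 and was listed at 0 in the SMGs. Lhx1, Lhx5, Lbx1, Lmx1b and Tlx3 averaged below 1 FPKM in the SMGs and reached the mean FPKM for the test through the placodes. The counts of dorsal interneuron markers are therefore a description. Of the sensory neuron list, 7 of 8 listed genes were tested, with 3 higher, 2 lower and 2 that did not pass the test, a share of calls near the 76.2% of all tested features. Ntrk2, the receptor of BDNF, was at 52.5 and 43.7 FPKM in the placode replicates and 46.4 and 51.8 in the SMG replicates (limma adjusted p = 0.780), and Avil was below 0.147 FPKM in all 4 samples. No hair cell marker reached the mean FPKM for the test, and Atoh1, the factor that starts hair cell fate, was at or below 0.0850 FPKM in every sample. The highest of these markers in the placodes was Lhx3, also a motor neuron and interneuron factor, at 1.61 and 1.80 FPKM, and listed at 0 in the SMGs. Of 4 retinal ganglion cell markers, 1 was higher and 2 were lower. Sncg, the higher one, was at 56.2 and 47.9 FPKM in the placode replicates and 0.696 and 0.844 in the SMG replicates, and Atoh7 was at 0.133 and 0.0740 and was listed at 0 in the SMGs.

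Pou6f1, the only class 6 gene of the set, was the most abundant POU gene in the SMGs. Its FPKM was 20.5 and 22.0 in the placode replicates and 6.75 and 6.35 in the SMG replicates. The values of the groups were clearly apart, with a difference of 1.56 on the log2(FPKM + 1) scale and a 3.24-fold ratio of mean FPKM. In the SMG replicates Pou6f1 made up 56.7% and 54.6% of the summed FPKM of the POU genes, against 11.3% and 11.9% in the placode replicates. The sum itself was 181 and 185 FPKM in the placode replicates and 11.9 and 11.6 FPKM in the SMG replicates.

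**Figure D3:**
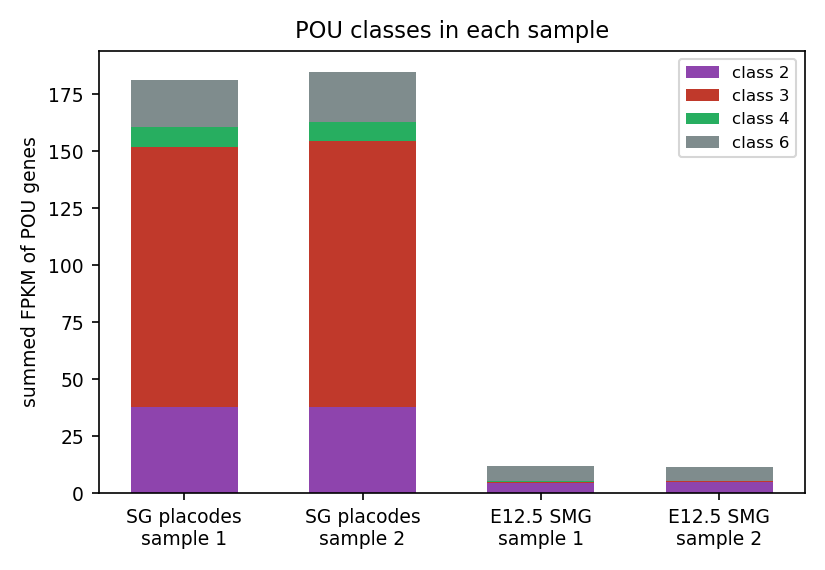
Summed FPKM of the 10 POU genes in each sample, stacked by class, with 2 genes in class 2, 4 in class 3, 3 in class 4 and 1 in class 6. Class 3 fills 63.0% of the bar in both placode replicates, and classes 2 and 6 fill most of the low bars of the SMG replicates.

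Ordered by mean FPKM, the placode levels were Pou3f3, Pou3f2, Pou2f2, Pou3f4, Pou6f1, Pou4f1, Pou3f1, Pou2f1, Pou4f2 and Pou4f3. The first 5 were above 10 FPKM in both samples. The sample ranges of neighbours in this order overlapped only for Pou3f1 and Pou2f1, both of which were at 6.06 FPKM in placode replicate 1. In the SMGs the order began with Pou6f1, at 6.55 ± 0.280 (SD, n = 2), and Pou2f1, at 4.28 ± 0.174 (SD, n = 2), and all other POU genes were below 0.473 FPKM or at that value. Among those others, the ranges overlapped between Pou2f2 and Pou3f4, between Pou3f4 and Pou3f1, between Pou2f2 and Pou3f1, between Pou4f2 and Pou3f3, between Pou4f2 and Pou4f1, between Pou4f1 and Pou3f3, and between Pou3f2 and Pou4f3, so the order within these pairs cannot be read. Some low values differed widely in proportion between the replicates of a group: Pou2f2 was at 0.246 and 0.473 FPKM in the SMGs and Pou4f3 at 0.156 and 0.0248 FPKM in the placodes. Others were closer, such as Pou3f3 at 0.0336 and 0.0314 FPKM in the SMGs.

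**Figure D4:**
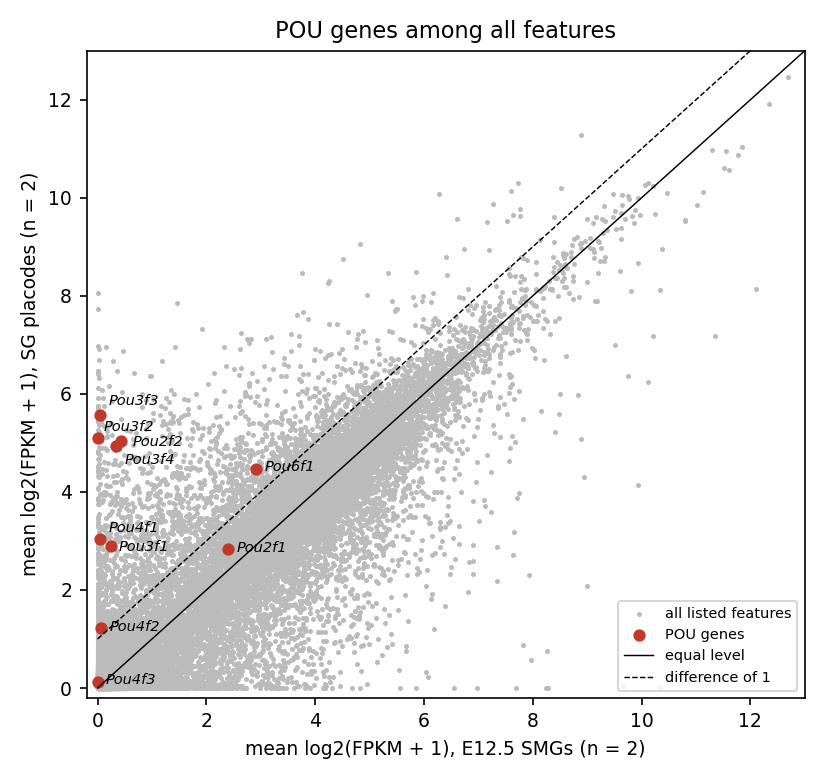
Mean log2(FPKM + 1) of every listed feature in the E12.5 SMGs (horizontal) and in the SG placodes (vertical), with the 10 POU genes in red, the solid line at equal levels and the dashed line at a difference of 1. The 8 POU genes at or above the dashed line include 7 that are below 1 in the SMGs, and Pou2f1 and Pou4f3 lie between the lines.

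Other POU genes, from outside the set, were at low levels in all samples. Pou5f1, which encodes the pluripotency factor Oct4, was at 0.403 and 0.340 FPKM in the placode replicates and was listed at 0 in both SMG replicates. Pou2f3, a factor of epidermis and tuft cells, was at 0.105 and 0.325 in the placode replicates, which overlapped its 0.184 and 0.0178 in the SMG replicates. Pou5f2 was at or below 0.0432 FPKM in every sample, and Pou1f1, the pituitary factor Pit-1, was listed at 0 in all 4.

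Genes that act with POU factors were tested in a fit of all 13193 features with a mean FPKM of at least 1. The test was limma, which borrows the spread of all features, on log2(FPKM + 1), two-sided and with Benjamini-Hochberg adjustment. Of these features 76.2% were called with the adjusted p under 0.05, which splits into 35.7% that rose and 40.4% that fell in the placodes. This balance turned under 2 of 3 other scalings, with 4716 higher and 5333 lower as deposited, 5074 and 4965 at an equal sum per sample, and 5088 and 4997 with median-ratio scaling, but not with quantile normalization (4743 and 5259). With 2 samples a side, exact permutation p-values stop at 0.333. Of 15 partners and coactivators, 14 were tested, 9 of them higher and 5 lower in the placodes. The median log2 difference of the 14 was 1.85, against -0.05 over all tested features. Sox1, Sox3, Myt1l and Neurod1 were below 1 FPKM in both SMG replicates and reached the mean FPKM for the test through the placodes. The list was also chosen with earlier results of these data known, so its counts and median are a description. The list shares Sox1, Sox2 and Sox3 with the neural progenitor markers, and Isl1 with the sensory neuron markers.

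The Sox partners, whose HMG domains bind DNA next to POU factors, included the largest rises. Sox3 was at 72.5 and 69.1 FPKM in the placode replicates and 0.0761 and 0.242 in the SMG replicates, a log2 difference of 5.96 (limma adjusted p = 1.94e-07). Sox2 was at 131 and 130 FPKM against 6.53 and 5.33 (log2 difference 4.25, limma adjusted p = 3.29e-07), and Sox1 rose as well, with a log2 difference of 2.41 (limma adjusted p = 5.35e-06). Myt1l, which takes part with Pou3f2 in the conversion of fibroblasts to neurons, was at 14.1 and 14.7 FPKM against 0.195 and 0.163 (log2 difference 3.70). Neurod1, a bHLH factor of neuronal differentiation, had a log2 difference of 3.02 (limma adjusted p = 1.73e-06).

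Of the 5 lower partners, Hcfc1, the host cell factor that binds Oct-1 with a viral activator, had a log2 difference of -0.31 (limma adjusted p = 3.58e-03), and Snapc4, the snRNA activating subunit that contacts Oct-1, also had -0.31 (limma adjusted p = 0.0117). Snapc4 was not called without placode replicate 1 (adjusted p = 0.0687) or without SMG replicate 2 (adjusted p = 0.0660). Nr3c1, the glucocorticoid receptor, was at 2.45 and 2.78 FPKM in the placode replicates and 8.88 and 8.35 in the SMG replicates (log2 difference -1.41). Sox10, the neural crest and glial factor, was at 2.00 and 1.58 FPKM against 19.1 and 16.7 (log2 difference -2.77, limma adjusted p = 3.63e-06). Of the 6 Schwann cell lineage markers, which include Sox10, 5 were tested, with 1 higher and 3 lower. The share of calls was near the 76.2% of all tested features. Mbp, at 9.99 and 9.09 against 5.84 and 5.42, was the one that rose. Isl1, singled out after its values were seen, was called higher (log2 difference 0.44, adjusted p = 0.0190 by limma), and was not called without placode replicate 2 (adjusted p = 0.0758), without SMG replicate 1 (adjusted p = 0.0708) or without SMG replicate 2 (adjusted p = 0.0534).

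Of 20 listed genes that have been described as targets of class 2, 3 or 4 factors, 11 were tested, 7 of them higher and 4 lower in the placodes. All 11 tested genes were called, where 76.2% of all tested features were. Their median log2 difference was 3.17, but over all 20 listed genes it was 0.12. Syn1, low in the SMGs, and Cd36, low in the placodes, reached the mean FPKM for the test through the other group. The list was also chosen with earlier results of these data known, so its counts and medians are a description. The higher genes were mostly parts of neurons. Ina, the intermediate filament α-internexin, was at 224 and 236 FPKM in the placode replicates and 1.90 and 1.62 in the SMG replicates, a log2 difference of 6.39 (limma adjusted p = 7.49e-08). Nefm, a neurofilament subunit, was at 199 and 187 FPKM against 11.9 and 11.6 (log2 difference 3.93). The synaptic genes Snap25 and Syn1 had log2 differences of 4.11 and 3.25. Dll1, a Notch ligand of new neurons, was at 58.2 and 57.1 FPKM against 2.27 and 2.07 (log2 difference 4.21, limma adjusted p = 1.94e-07), and Nes, the filament gene of neural progenitors, had a log2 difference of 1.03.

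The lower target genes included Bcl2, Cd36 and Runx1. Bcl2, an inhibitor of apoptosis, was at 1.23 and 1.03 FPKM in the placode replicates and 12.3 and 12.8 in the SMG replicates (log2 difference -2.68, limma adjusted p = 2.21e-06). Cd36, a fatty acid receptor that depends on Oct-2 in B cells, was listed at 0 and was at 0.0874 FPKM in the placode replicates and was at 3.59 and 3.70 in the SMG replicates, opposite in direction to Pou2f2. Runx1 had a log2 difference of -0.98. Of the targets below the mean FPKM for the test, the hypothalamic genes Crh, Avp and Oxt, which depend on Pou3f2, were at or below 0.128 FPKM in every sample. Egr2, which acts after Pou3f1 in Schwann cells, was at 0.264 and 0.181 FPKM in the placode replicates and 0.399 and 0.558 in the SMG replicates. The hair cell gene Gfi1, a target of Pou4f3, was at or below 0.165 FPKM in all samples. These 5 low genes fell outside the naming rule and were picked with their values in view.

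**Figure D5:**
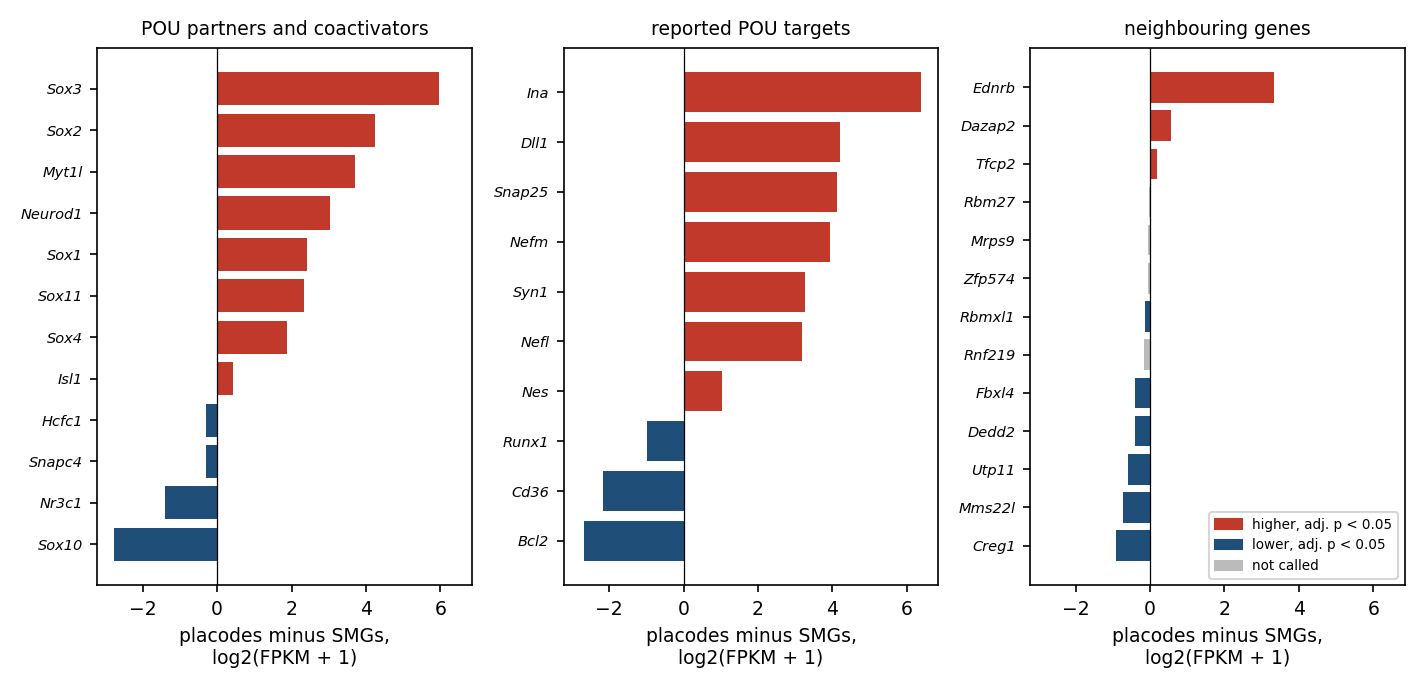
Difference of mean log2(FPKM + 1), placodes minus SMGs, of tested partners or coactivators (12 of 14 genes drawn), reported targets (10 of 11) and nearest neighbours on the chromosome (13 of 14), with colour giving the limma call at an adjusted p below 0.05. Bars of partners and targets reach from -2.77 to 6.39, and among neighbours 1 gene, Ednrb, is beyond 1 in either direction.

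Neural markers moved with the POU genes in the same samples. Among neuron markers, Tubb3 was the highest in the placodes, at 345 and 365 FPKM against 41.6 and 37.1, and Rbfox3 the lowest, at 22.0 and 23.4 against 0.263 and 0.176. Among neural progenitor markers, Fabp7 was the highest, at 343 and 367 FPKM against 14.6 and 10.9. The summed FPKM of the 8 progenitor markers was 854 and 880 in the placode replicates and 66.2 and 62.0 in the SMG replicates. No progenitor or neuron marker was at 0 in a placode replicate. Mesenchyme markers were lower in the placodes for 6 of 6 genes, where 40.4% of all tested features were lower. They ran from Col3a1, at 83.3 and 79.8 FPKM against 881 and 849, to Fgf10, at 0.465 and 0.123 against 45.5 and 46.1. Fgf10 reached the mean FPKM for the test through the SMGs. Krt8, the highest epithelial marker in the placodes, was at 34.4 and 35.6 FPKM against 36.1 and 28.3 and did not pass the test (limma adjusted p = 0.322). The part of these cell types in the POU levels was not tested.

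The nearest listed gene on each side of each POU gene was also measured, since position was not used in choosing the set. Of 20 neighbours, 14 were tested, and 4 were higher, 6 were lower and 4 did not pass the test, so 10 of 14 were called where 76.2% of all tested features were. Their median log2 difference was -0.10. Ednrb, an endothelin receptor gene of neural crest and radial glia, lies 617274 bases from Pou4f1 and was at 117 and 115 FPKM in the placode replicates and 10.5 and 10.9 in the SMG replicates (log2 difference 3.32, limma adjusted p = 1.55e-07). It was the only tested neighbour beyond a difference of 1. On the other side of Pou4f1, at 9537 bases, Rnf219 had a log2 difference of -0.15 (limma adjusted p = 0.106). For Pou3f2, Fbxl4 at 48689 bases and Mms22l at 2008085 bases had log2 differences of -0.41 and -0.72 and were called lower, but Mms22l lost its call once all features entered the fit (adjusted p = 0.0520). Mrps9, at 148057 bases from Pou3f3, had a log2 difference of -0.05 and was not called, and Tmem182 on its other side was at or below 0.0780 FPKM in all samples. The neighbours of Pou3f4, Gm6377 and Cylc1, were listed at 0 in both placode replicates.

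For Pou2f1, Creg1 was at 6.32 and 6.02 FPKM in the placode replicates and 11.5 and 13.6 in the SMG replicates (log2 difference -0.92) and was called lower. Dusp27, on its other side, was at 0.0386 and 0.0596 FPKM against 0.808 and 0.729, below the mean FPKM for the test. For Pou2f2, at 3852 and 20189 bases, Zfp574 had a log2 difference of -0.07 and was not called, and Dedd2 had -0.42 and was called. Utp11, next to Pou3f1, had -0.60 and was called lower. Rbmxl1, next to Pou4f2, was called at -0.14 (limma adjusted p = 0.0310) but not after rescaling to an equal sum per sample (adjusted p = 0.199) or without placode replicate 1 (adjusted p = 0.0860), placode replicate 2 (adjusted p = 0.125) or SMG replicate 2 (adjusted p = 0.0918). Rbm27, next to Pou4f3, had -0.04 and was not called. The neighbours of Pou6f1 were Dazap2, higher by 0.56, and Tfcp2, at 0.20 (limma adjusted p = 0.0420), which was not called without placode replicate 1 (adjusted p = 0.199), placode replicate 2 (adjusted p = 0.0505), SMG replicate 1 (adjusted p = 0.174) or SMG replicate 2 (adjusted p = 0.0765), nor with the replicate number as a block (adjusted p = 0.0549). Mrps9 and Rbm27, the uncalled neighbours of Pou3f3 and Pou4f3, turned to slightly higher values in the placodes, by 0.011 and 0.015 on the log2 scale, after rescaling to an equal sum per sample.

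On GRCm38, Pou2f1 lies on chromosome 1 from 165865154 to 166002678, Pou2f2 on chromosome 7 from 25087344 to 25179726 and Pou6f1 on chromosome 15 from 100575318 to 100599984, all on the minus strand. Of the class 3 genes, Pou3f1 lies on chromosome 4 from 124656807 to 124660655, Pou3f2 on chromosome 4 from 22482780 to 22488366, Pou3f3 on chromosome 1 from 42695768 to 42703176 and Pou3f4 on chromosome X from 110814280 to 110817207. Of the class 4 genes, Pou4f1 lies on chromosome 14 from 104461676 to 104467999 and Pou4f2 on chromosome 8 from 78433010 to 78436645. Exons of Pou3f1 overlap the antisense gene Gm2164, with which it shares 7.42% of its 50-base stretches, and Gm2164 was not analysed here. For the other POU genes apart from Pou2f1, at most 0.80% of these stretches were shared with transcripts of other genes.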

How the data were processed

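Expression by RNA-seq was available for SG placodes (2 samples) and for SMGs (2 samples), grouped by their labels. The authors mapped paired-end reads with HISAT2 and deposited FPKM per gene. The processing notes name GRCm38 and also GRCh38, and the annotation, the strandedness and the program behind FPKM are not given in the sources used here. Of 22036 Ensembl genes, 22022 were found in GENCODE M21 (GRCm38). Promoters were taken from RefSeq.

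FPKM was transformed as log2(FPKM + 1), and 13193 features with a mean FPKM of at least 1 were fitted in R 4.3.3 by limma 3.58.1, using an intensity trend in eBayes and no term but the group. Differences are placodes minus SMGs, and they understate the change of low genes. The fit was tested on simulated data of 13193 features, where 190 of 200 changed features (log2 change of 2) were recovered and 13 others were called. Only these 200 features were changed and the spreads were shuffled over features, whereas 76.2% of features were called in the data. The simulation therefore does not give the error rate of the fit on the data.

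The POU genes and the gene lists were chosen with earlier results of these data known. The names given are all POU genes, the 5 highest and 5 lowest tested partners and targets, all tested neighbours, and the highest and lowest marker of each list in the placodes, and further names were chosen after their values were seen. Some genes that this rule names are not reported here. Ighm and Drgx were not analysed here, and the 2735 assembled loci were fitted but not named. The alternatives changed the pseudocount, the scaling, the minimum of mean FPKM, the trend, the replicate block and the samples left out.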

Additional observations from a re-analysis of the deposited data

How the results depend on the processing

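The median log2 difference of the 10 POU genes was 2.82 at a pseudocount of 1, 5.15 at 0.1 and 6.26 at 0.001, since most of them were near 0 in the SMGs. The number at least 2-fold higher was 8, and 9 at a pseudocount of 0.001. At a detection level of 5 FPKM, 8 were detected in the placodes in place of 9. Under 3 other scalings and with each replicate left out, the median lay between 2.76 and 2.87 and no POU gene changed direction. Among partners, targets and neighbours, 14, 11 and 10 genes were called, against 12 to 13, 11 to 12 and 7 to 9 with 1 replicate left out, where the lone sample is assumed to vary like the other group. With no minimum of mean FPKM, the counts were 13, 13 and 11, and with a minimum of 5 they were 11, 9 and 10. Leaving out the assembled loci, an alternative chosen after seeing the data, left the counts at 14, 11 and 10. The groups share replicate numbers, but deviations of samples with the same number had a correlation of -0.03 over 13193 features, and only 2 pairs exist, so the numbers were not taken as a pairing. With the replicate block, 10043 features were called in place of 10049, with 14 partners, 11 targets and 9 neighbours. FPKM below about 0.1 rests on at most a few fragments, so levels in the SMGs cannot be ordered there.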
